A study of Mus musculus with 10 samples.

Results

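The genes described here are the ligands and receptors of the Wnt pathway, 36 genes taken as a fixed list out of 48975 genes with a summed count. They comprise 19 Wnt ligands, 10 Frizzled receptors, 5 co-receptors or alternative receptors (Lrp5, Lrp6, Ror1, Ror2 and Ryk) and 2 genes that are widely read as signs of pathway activity, Axin2 and Lef1. All 36 genes were found in the deposited files.

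RNA was sequenced from YFP-positive cells sorted from mouse embryos at e10.5, in 5 control and 5 conditional double-mutant (cdKO) samples. This stage is the one in the sample titles, whereas a second label field gives a different stage for each sample. All 10 samples carried Olig2-Cre+/- and Rosa26R-YFP+/-, so that the recombinase and the reporter were present in controls too. Control samples were Oc1+/Flox and Oc2+/Flox, and cdKO samples were Oc1-/Flox and Oc2-/Flox, Oc1 and Oc2 being the transcription factor genes Onecut1 and Onecut2. Both groups therefore lose 1 copy of each gene on recombination, and cdKO cells keep none. Olig2-Cre acts in the progenitors of motor neurons, and the sorted population also holds V3 interneurons, which lie ventral to the motor neurons. Nothing in the labels says whether a sample was 1 embryo or a pool, so that p-values measure the spread between these samples.

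Wnt proteins are secreted lipid-bearing signals that bind Frizzled receptors together with a co-receptor. With Lrp5 or Lrp6 they stabilise beta-catenin, which enters the nucleus and acts through TCF and LEF proteins, whereas Ror1, Ror2 and Ryk carry signals that do not need beta-catenin and that guide cell polarity and axons. In the developing spinal cord, Wnt1 and Wnt3a are known from the roof plate, where they favour dorsal fates and proliferation, while Wnt4, Wnt5a and Wnt7a are known from the ventral and intermediate cord.

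Depth was high in every library. Summed over exon bins, that is the non-overlapping parts of exons on which reads were counted, control libraries held 63932395 to 107709534 counts with a median of 83139709, and cdKO libraries 72315782 to 84249157 with a median of 81318745. Counts on exon 1 of Onecut1 (chr9:74861921-74863401) were 125, 80, 205, 210 and 63 in control replicates 1 to 5 and 0, 17, 0, 3 and 0 in cdKO replicates 1 to 5. Onecut3, a related gene that is not itself targeted, had 29 to 68 counts in controls and 0 to 3 in cdKO, so the labels and these genes went together, although the floxed exons are not given in the sources used here. Motor neuron markers were abundant in both groups, with a summed CPM (counts scaled to library size by TMM) of 8 genes led by Isl1, Lhx3 and Isl2 between 539 and 774 in control and 401 and 919 in cdKO, as were progenitor genes such as Hes5, Vim and Nes. Replicate 5 of each group stood apart from the others in how counts were spread along genes. Over 4835 to 7235 genes per library, the median share of counts on the middle stretch of a gene, from 25% to 75% of its counted length, was 55.4% to 56.4% in the other 8 libraries, 52.4% in control replicate 5 and 44.1% in cdKO replicate 5, and results that rest on these libraries are given with and without them. Control replicate 5 also differed in markers of V3 interneurons and their progenitors. Their summed CPM was 99.8 there and 24.0 to 31.1 in the other controls. Nkx2-9 had 5718 counts there against 786 to 1319, whereas Sim1 (10 counts) and Uncx (3) were at their lowest of all libraries. The parts of coverage and of cell content in values of the replicate 5 libraries were not tested.

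Expression was first mapped across the list. A gene was called expressed in a group when its CPM was at least 1 in at least 3 of the 5 samples. By that rule 21 of the 36 genes were expressed in control and 21 in cdKO, with 20 shared. The shared ligands were Wnt1, Wnt4, Wnt5a, Wnt5b, Wnt7a and Wnt7b. The call of Wnt1 rests on its last exon, which held 98.3% of its counts, as described further on. Of the 10 Frizzled receptors all but Fzd5 were expressed in control and all but Fzd5 and Fzd6 in cdKO, and of the co-receptors all but Lrp5 were expressed in both groups. Axin2 and Lef1 were expressed in both. The calls that differed between groups were Wnt11, which reached CPM 1 in 1 control and 3 cdKO samples, and Fzd6, which reached it in 4 control and 2 cdKO samples, and neither gene passed the test of the difference given further on.

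A set of 9 ligands had too few counts to be tested (Wnt2, Wnt2b, Wnt3a, Wnt6, Wnt8a, Wnt8b, Wnt9b, Wnt10a and Wnt10b). Wnt2 had 0 counts in all 10 libraries, and Wnt8a, Wnt8b, Wnt9b and Wnt10a never exceeded 3 counts in a library. A count of 0 allows up to 3 counts, which is a CPM of 0.0288 to 0.0591 depending on the library and covers counting error only, because counts are not of independent molecules. Wnt3a and Wnt6 were uneven: Wnt3a had a CPM of 0.851 in cdKO replicate 1 and 0 to 0.307 elsewhere, and Wnt6 had 0.391 in control replicate 1 and 0 to 0.152 elsewhere. The 27 genes that passed the filter were 10 ligands, all 10 Frizzled receptors, all 5 co-receptors and both readouts.

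Levels of different genes were compared as CPM per kilobase of the exon bins counted. Among the ligands Wnt7b (6.07 ± 3.85, SD over 10 samples), Wnt7a (5.88 ± 1.795) and Wnt5b (5.08 ± 1.53) came first, and these neighbours differed by less than 1 SD. Together they made up 76.9% of the summed ligand level per kilobase (61.2% to 84.5% by sample). Wnt5a (2.24 ± 0.63), Wnt4 (1.42 ± 0.84) and Wnt1 (0.82 ± 0.47) followed, and no other ligand reached 0.5 on this scale. On this scale the step from Wnt5b down to Wnt5a was larger than the SDs, whereas Wnt4 and Wnt1 overlapped. That step depended on the bins used, as long bins with few counts lower a gene's level per kilobase. On the densest of the longer bins of each gene, Wnt7b was at 10.7, Wnt5b at 8.48, Wnt5a at 7.61 and Wnt7a at 7.08. On the longest bin of each gene Wnt5a was at 0.344, below Wnt5b at 5.03.

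Among the Frizzled receptors Fzd3 was the highest, with 20.8 ± 9.26 CPM per kilobase. Fzd7 (8.14 ± 3.68), Fzd2 (8.0 ± 1.78) and Fzd9 (7.13 ± 2.66) could not be ordered beyond their spread. These 4 receptors held 91.5% of the summed Frizzled level (88.0% to 94.7% by sample), and Fzd1, Fzd8 and Fzd10 lay between 0.854 and 1.57. The deposited bins of Fzd3 cover 33.0% of its annotated exon length, so its level describes that stretch only. Fzd3 was summed over 9 bins, each of which counts every read that overlaps it, while Fzd7, Fzd2 and Fzd9 have 1 bin each. Its lead and the summed share therefore depend on the bins. On its longest bin Fzd3 was at 9.60, and on the densest of its longer bins at 29.9. Ryk (8.81 ± 5.17 in control and 12.2 ± 7.31 in cdKO) and Ror2 (4.49 ± 2.05) made up 90.5% of the summed co-receptor level, ahead of Lrp6 (1.27 ± 0.54), Ror1 (0.268 ± 0.133) and Lrp5 (0.0334 ± 0.0272). Taking instead the longest bin of each gene put Ryk at rank 4 of 5 among the co-receptors, at 0.0573, since that bin was hardly covered, and the other classes kept their highest gene. On the densest of the longer bins Ryk was at 9.99, Ror2 at 7.62 and Lrp6 at 6.42, so the distance of Lrp6 from the others depended on the bins used.

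**Figure D1:**
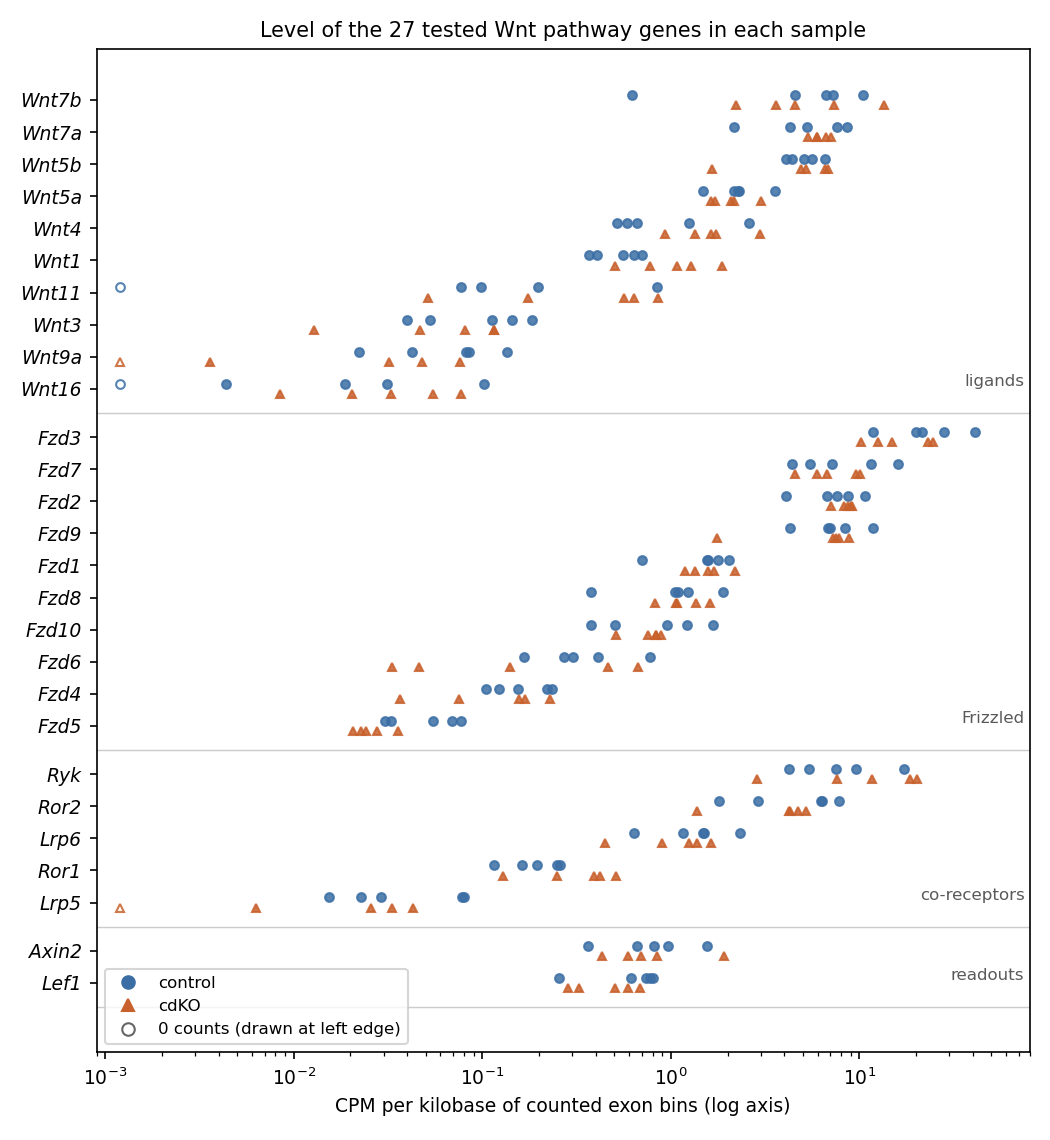
CPM per kilobase of counted exon bins (log axis) in each of the 10 samples for the 27 genes tested, with control samples as circles and cdKO samples as triangles. Open symbols at the left edge stand for 0 counts. Control and cdKO points overlap for every gene, and Fzd3, Ryk, Fzd7, Fzd2 and Fzd9 lie highest.

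The comparison of cdKO with control asked which genes change when both Onecut genes are lost in this lineage. None of the 36 genes passed an adjusted p of 0.05 (edgeR's quasi-likelihood test, Benjamini-Hochberg over all 17840 genes tested), and in this fit no gene of the whole table did, a background of 0%. That includes Onecut1 and Onecut3, whose counts fell with the label. Both were lower at an unadjusted p under 0.05, and their lowest adjusted p was 0.111 (edgeR). The test of Onecut1 used the whole gene, not exon 1 alone. Its whole-gene counts were 235 to 733 in control and 81 to 288 in cdKO, so the groups overlapped. A member not called here was therefore not shown to be unchanged. At an unadjusted p under 0.05, 1 of the 27 tested members was higher in cdKO and 0 were lower. The background over all genes was 4.18% higher (745 genes) and 0.813% lower (145 genes), so the share among the members did not stand above it. Other tools called more genes at an adjusted p of 0.05, namely 20 in the DESeq2 Wald test, 3 in limma-voom and 13 once samples were weighted by quality, and none of these was a member.

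No member had groups that did not overlap, against a background of 0.185% of genes separated upwards and 0.224% downwards. Fold changes were positive for 12 members and negative for 15, beside 8599 and 9241 of all genes tested. The median of the members was -0.16 on the log2 scale beside -0.02 for all genes. Member fold changes ran from -1.17 for Wnt9a to 1.04 for Wnt1, with standard errors of 0.28 to 1.003, and 25 of the 27 were smaller than 2 standard errors. Within groups the median coefficient of variation of the members was 48.0% in control and 42.0% in cdKO. Of the 27 members, 17 had their lowest CPM in a replicate 5 library and 8 their highest.

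**Figure D2:**
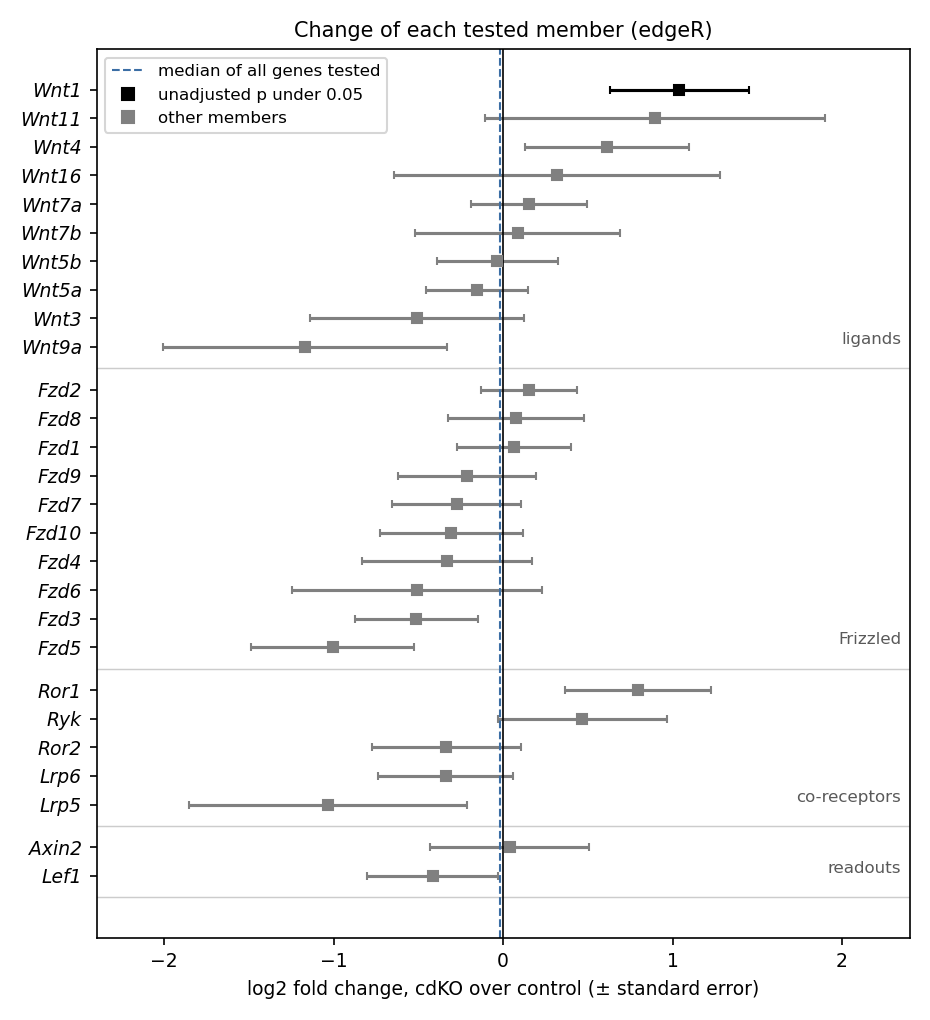
Log2 fold change of cdKO over control with its standard error for each tested member (edgeR), by class. The dashed line is the median of all genes tested, and Wnt1, in black, is the member with an unadjusted p under 0.05.

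Wnt1, the roof plate ligand that signals through beta-catenin, was that member. It lies on chromosome 15 from 98789857 to 98793837. Its CPM was 1.52, 1.68, 0.966, 1.33 and 0.872 in control replicates 1 to 5 and 2.58, 1.20, 3.06, 1.84 and 4.43 in cdKO replicates 1 to 5. The groups overlapped only through cdKO replicate 2, which lay among the controls, while the other 4 cdKO samples were above every control. The log2 fold change was 1.04 (SE 0.41), with an unadjusted p of 0.0241 and an adjusted p of 0.938 (edgeR). Without both replicate 5 libraries it was 0.65, and the unadjusted p was then 0.0859. That p was 0.0738 with the replicate number as a block, and it ran from 0.0097 to 0.0591 with 1 library left out, the highest values being those without control replicate 3 (0.0591) or cdKO replicate 3 (0.0574).

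Almost all of the Wnt1 signal came from 1 exon, so its expression call and its level rest on that exon. The last of its 4 exons (chr15:98792416-98793837, 1422 bases) held 98.3% of the counts, 1474 in all, whereas the first 3 together held 26 counts over 10 libraries and 0 to 9 in any library. Reads were counted without regard to strand, so RNA from the opposite strand of that exon would be included. The other roof plate and dorsal genes were scarce, with a summed CPM of 9 markers of 1.63 to 3.97 in control and 2.21 to 4.44 in cdKO, Pax7 at 0 counts in every library, and Gdf7, Zic1, Msx2 and Atoh1 too low to test. The 4 tested markers all had positive fold changes, with a median of 0.50 on the log2 scale and no unadjusted p under 0.05 (edgeR). Over all genes, 8599 of the 17840 tested had positive fold changes. Across the 10 samples Wnt1 and the mean of these markers had Pearson r = 0.472 (permutation p = 0.168, adjusted p = 0.403) and Spearman rho = 0.418 (permutation p = 0.232, adjusted p = 0.539). The value of r was 0.273 without the 2 samples farthest from the median, 0.691 without both replicate 5 libraries, -0.285 within control and 0.735 within cdKO, and the part of such cells in the Wnt1 result was not tested.

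Mesenchymal markers, which a sort of neural cells should lack, were present at low levels. Of 10 such markers 9 had positive fold changes, as had 8599 of the 17840 genes tested. The summed CPM of the 10 was 7.49 to 10.3 in control and 8.57 to 13.8 in cdKO. Twist1 (2.55, unadjusted p = 0.0123) and Col1a2 (0.69, unadjusted p = 0.0476) had positive fold changes that did not pass adjustment (edgeR, lowest adjusted p = 0.938). Over all genes tested, 4.18% were higher at an unadjusted p under 0.05. Twist1 was scarce, with 2 to 18 counts per control library and 8 to 82 per cdKO library. Its log2 fold change was 1.49 (unadjusted p = 0.0712) without cdKO replicate 5, and the unadjusted p of Col1a2 ran up to 0.158 with 1 library left out. Across the 10 samples the level of Wnt1 went with the mean of these markers (Pearson r = 0.739, permutation p = 0.0141, adjusted p = 0.117 over the 108 relations computed; Spearman rho = 0.733, permutation p = 0.0202, adjusted p = 0.156). The relation was 0.73 without the 2 samples farthest from the median, 0.248 within control and 0.628 within cdKO. The permutations ignored group, so a difference between groups enters these p-values. Wnt1 was 1 of 6 members with an unadjusted p under 0.05 against this list, the others being Wnt11 (r = 0.753), Wnt4 (0.701), Ror1 (0.63), Lrp5 (-0.677) and Lef1 (-0.762), and none of the 6 passed adjustment. Such members numbered 7 for the motor neuron markers, 4 for the ventral progenitor markers and 4 for the roof plate and dorsal markers. The share over all genes was not computed, so 6 members do not set this list apart. Globin and other erythroid genes were also present, at uneven levels. Their summed CPM over 7 markers was 54.6 in cdKO replicate 3 and 66.1 in cdKO replicate 5, 2.83 to 10.6 in the other cdKO samples and 0.901 to 19.0 in control, so that control replicate 1 lay above 3 cdKO samples. All 6 tested had positive fold changes, 2 with an unadjusted p under 0.05, and none passed adjustment (edgeR, lowest adjusted p = 0.938). The shares over all genes are those given above for the mesenchymal markers. The part of such cells in the Wnt1 result was not tested. In bulk RNA of this kind, a change in the number of cells of a type and a change in the RNA of each cell cannot be told apart.

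**Figure D3:**
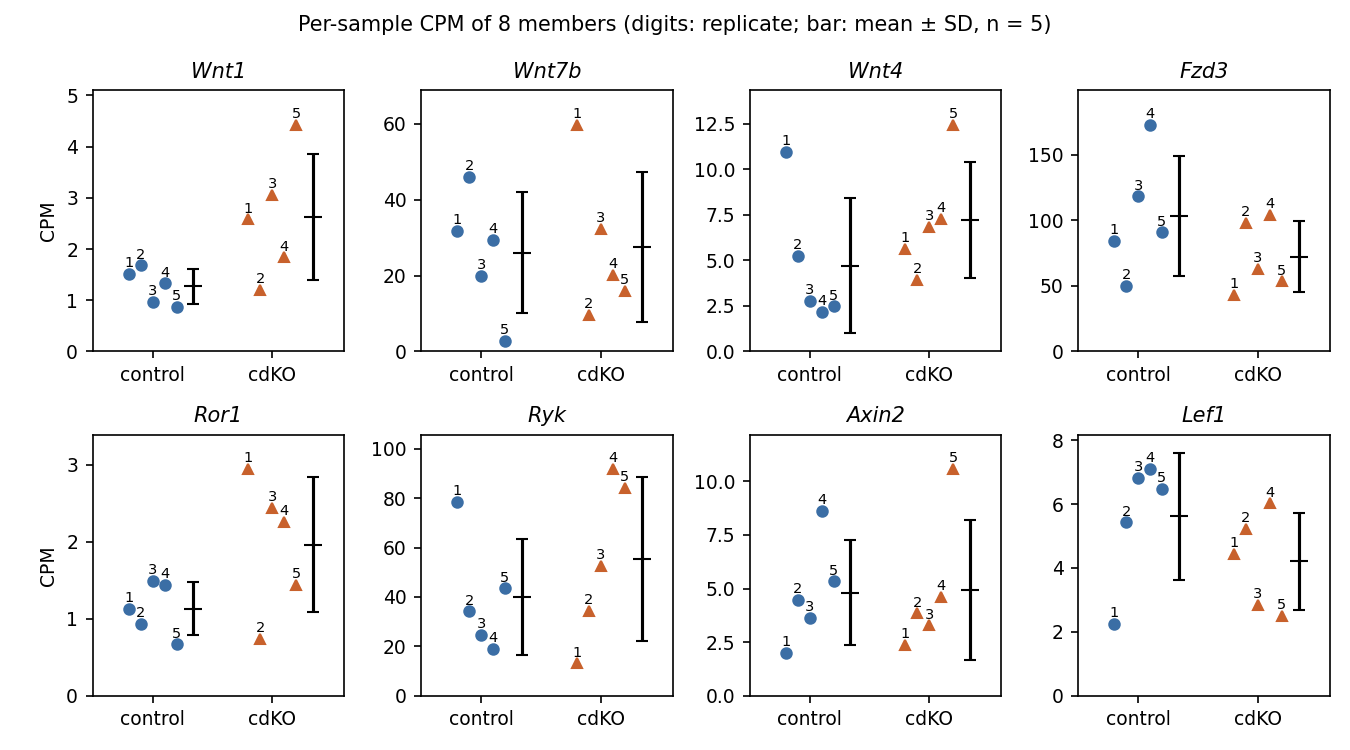
CPM of 8 members in each sample, with the replicate number beside each point and the mean ± SD of each group (n = 5) as a bar. For Wnt1 only cdKO replicate 2 lies among the controls, and the highest point of Axin2 is cdKO replicate 5.

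The other ligands had fold changes on both sides of 0, with 6 positive and 4 negative values, Wnt7b turning negative with library size alone in place of TMM. Wnt7b, a ligand known for its actions on dendrites and on brain vessels, varied most among the abundant ligands. Its CPM was 31.9, 46.0, 20.01, 29.4 and 2.73 in control replicates 1 to 5 and 59.8, 9.72, 32.3, 20.1 and 16.0 in cdKO replicates 1 to 5, a range of 21.9 times. The groups overlapped fully, at a log2 fold change of 0.09 (SE 0.60, unadjusted p = 0.888 in edgeR).

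The spread was set beside that of the motor neuron markers. The log2 level of Wnt7b went with the mean of the 8 markers over the 10 samples, with Pearson r = 0.883 (permutation p = 0.001, adjusted p = 0.054) and Spearman rho = 0.927 (permutation p = 0.00041, adjusted p = 0.0443), the single relation of 108 that passed adjustment, and by rank only. The relation held at r = 0.899 without the 2 samples farthest from the median, which were both replicate 5 libraries, and was 0.981 within control and 0.77 within cdKO, with 5 samples each. Wnt16, a ligand under a CPM of 0.6, ran the other way against the same markers (Pearson r = -0.904, permutation p = 0.00052, adjusted p = 0.054; Spearman rho = -0.855, adjusted p = 0.0943), at r = -0.64 without both replicate 5 libraries. Its counts were only 0 to 30 per library. Lrp6, at a higher level, also ran the other way (Pearson r = -0.821, permutation p = 0.00521, adjusted p = 0.111), at r = -0.796 without both replicate 5 libraries. With the ventral progenitor markers Wnt7b had r = -0.582 (permutation p = 0.0695, adjusted p = 0.274) and rho = -0.758 (permutation p = 0.0148, adjusted p = 0.146). Of the 8 markers only Isl1 had an unadjusted p under 0.05, at 225 ± 80.5 CPM in control and 127 ± 32.9 in cdKO (log2 fold change -0.83, SE 0.31, unadjusted p = 0.018, adjusted p = 0.938 in edgeR). Without control replicate 5 its unadjusted p was 0.0543. Both measures come from the same libraries and share their depth and their coverage along genes.

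**Figure D4:**
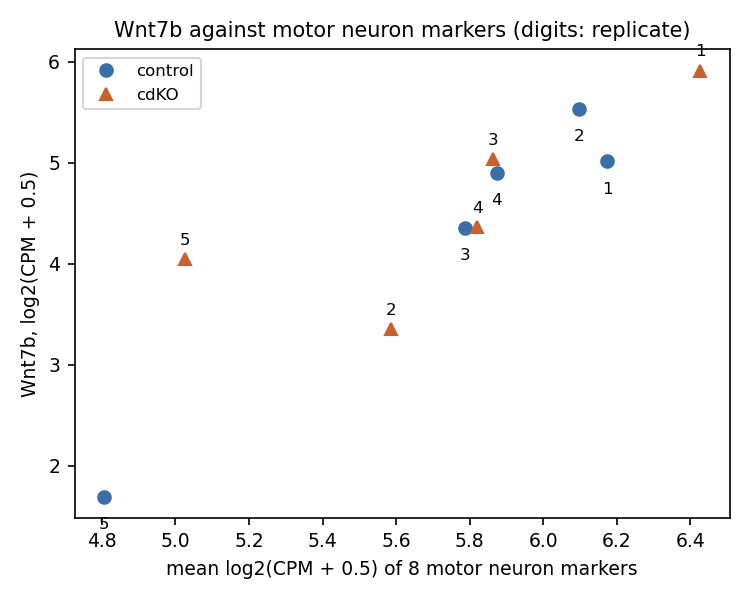
Log2(CPM + 0.5) of Wnt7b against the mean log2(CPM + 0.5) of 8 motor neuron markers in the 10 samples, with the replicate number beside each point. Control replicate 5 lies lowest on both axes and cdKO replicate 1 highest.

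Wnt7a, a close relative of Wnt7b, was even in cdKO, with CPM of 19.0, 17.0, 20.97, 22.4 and 18.8, and more spread in control, with 13.7, 27.2, 16.7, 24.0 and 6.87. The lowest control value was replicate 5, and every cdKO sample lay within the control range. Its log2 fold change was 0.15 (SE 0.34, unadjusted p = 0.666 in edgeR).

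Wnt5a and Wnt5b signal mainly without beta-catenin, through Ror2 and Ryk among others. Wnt5b had a CPM of 10.8, 17.5, 13.5, 11.6 and 14.8 in control replicates 1 to 5 and 17.4, 18.1, 13.1, 13.8 and 4.37 in cdKO replicates 1 to 5. Wnt5a had 18.0, 17.0, 17.8, 27.9 and 11.6 in control and 13.5, 16.9, 16.3, 23.4 and 12.7 in cdKO. For Wnt5b the single low value was cdKO replicate 5, and for Wnt5a replicate 4 was the highest of each group. Both had fold changes near 0, -0.03 (SE 0.36) for Wnt5b and -0.16 (SE 0.30) for Wnt5a, and Wnt5b was positive, 0.21, without both replicate 5 libraries.

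Wnt4, best known from kidney and gonad development, had a CPM of 10.9, 5.24, 2.76, 2.169 and 2.47 in control replicates 1 to 5 and 5.63, 3.93, 6.82, 7.30 and 12.5 in cdKO replicates 1 to 5. Control replicate 1 was above all cdKO samples but replicate 5, so the groups overlapped. This gave a log2 fold change of 0.61 (SE 0.48, unadjusted p = 0.227 in edgeR), 1.19 without control replicate 1 and 0.15 without both replicate 5 libraries.

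The remaining tested ligands were low or uneven. Wnt11 had no count in control replicate 5, a CPM of 3.49 in control replicate 1 and 0.318 to 0.815 in the other controls, and 0.214 to 3.52 in cdKO, with a log2 fold change of 0.90 (SE 1.003), and 2.27 without control replicate 1. Wnt3, Wnt9a and Wnt16 stayed under a CPM of 0.6 in every library, with log2 fold changes of -0.51 (SE 0.63), -1.17 (SE 0.84) and 0.32 (SE 0.96). Wnt16 was at 1.49 without control replicate 5 and at -0.035 without cdKO replicate 5, and Wnt3 at -0.22 without control replicate 1.

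Among the Frizzled receptors, the 7-pass proteins that bind Wnt, 3 had positive and 7 negative fold changes, with a median of -0.29, and the positive values of Fzd1 and Fzd8 turned negative with library size alone. Fzd3, a receptor needed for axon tracts and planar cell polarity, had a CPM of 84.0, 49.9, 118.2, 172.9 and 90.6 in control replicates 1 to 5 and 43.3, 97.7, 62.7, 104.2 and 53.3 in cdKO replicates 1 to 5. The 2 highest values were controls and the lowest was a cdKO sample, but the groups overlapped widely. The change was -0.51 on the log2 scale (SE 0.36, unadjusted p = 0.179 in edgeR), and -0.26 without control replicate 4.

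Fzd7, a receptor of progenitors and stem cells, had a CPM of 19.95, 32.3, 52.2, 72.8 and 24.7 in control and 20.7, 43.3, 26.9, 45.7 and 30.5 in cdKO. Fzd2, a broadly expressed receptor, had 24.7, 39.3, 28.0, 31.8 and 15.0 in control and 32.9, 33.3, 25.7, 30.5 and 31.8 in cdKO. For both genes the cdKO values lay inside the control range. Their log2 fold changes were -0.27 (SE 0.38) and 0.15 (SE 0.28), and Fzd7 turned to 0.03 without control replicate 4.

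Fzd9 had a CPM of 15.5, 27.1, 16.1, 19.2 and 9.78 in control replicates 1 to 5 and 20.1, 17.9, 16.5, 17.2 and 4.02 in cdKO replicates 1 to 5. Replicate 5 was the lowest of each group, and the remaining cdKO samples sat within 16.5 to 20.1. On the log2 scale the change was -0.21 (SE 0.41) and 0.03 without cdKO replicate 5. Fzd1 had 7.50, 6.61, 6.49, 8.57 and 2.96 in control and 6.64, 5.01, 5.65, 7.07 and 9.24 in cdKO, with a log2 fold change of 0.06 (SE 0.34).

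Fzd5 had the largest negative fold change of the 10 Frizzled receptors, -1.01 (SE 0.48, unadjusted p = 0.0564, adjusted p = 0.938 in edgeR), at a CPM of 0.211 to 0.532 in control and 0.143 to 0.246 in cdKO. Of its counts 87.0% fell on bins that an opposite-strand gene, Gm38058, also covers, so they cannot be assigned to Fzd5 alone. Fzd8 (CPM 1.26 to 6.35), Fzd10 (1.23 to 5.41), Fzd6 (0.138 to 3.20) and Fzd4 (0.246 to 1.57) had log2 fold changes of 0.07, -0.31, -0.51 and -0.33 with unadjusted p of 0.48 or more. Without control replicate 4 Fzd10 was at -0.03 and Fzd6 at -0.10, and Fzd4 was at -0.11 without cdKO replicate 3.

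Of the co-receptors, Ryk, an atypical receptor that guides axons away from Wnt sources, varied by 7.04 times between samples. Its CPM was 78.4, 34.1, 24.5, 19.1 and 43.5 in control replicates 1 to 5 and 13.1, 34.5, 52.7, 91.9 and 84.1 in cdKO replicates 1 to 5. The lowest and the highest samples were both cdKO. The log2 fold change was 0.47 (SE 0.50, unadjusted p = 0.366 in edgeR), and 0.17 without cdKO replicate 4.

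Ror2, a tyrosine kinase-like receptor for Wnt5a, had a CPM of 12.2, 26.4, 26.95, 33.1 and 7.59 in control and 19.9, 22.2, 18.2, 18.1 and 5.81 in cdKO. The lowest of each group was replicate 5, and cdKO values lay between the control extremes apart from that library. Its log2 fold change was -0.34 (SE 0.44) over all samples and -0.12 without cdKO replicate 5.

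Ror1, its relative, had a CPM of 1.12, 0.930, 1.49, 1.44 and 0.665 in control replicates 1 to 5 and 2.95, 0.738, 2.43, 2.25 and 1.44 in cdKO replicates 1 to 5. Here 3 cdKO samples were above every control and 2 were not. Its log2 fold change was 0.80 (SE 0.43, unadjusted p = 0.0873, adjusted p = 0.942 in edgeR).

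The beta-catenin co-receptors Lrp5 and Lrp6 were far apart in level. Lrp6 had a CPM of 15.9, 8.75, 20.2, 20.6 and 31.8 in control and 6.12, 18.8, 12.2, 17.1 and 22.5 in cdKO, with a log2 fold change of -0.34 (SE 0.40). Lrp5 had 0.151, 0.221, 0.284, 0.759 and 0.783 in control and 0.419, 0.2498, 0.0614, 0.322 and 0 in cdKO, with -1.04 (SE 0.82). Without both replicate 5 libraries Lrp5 was at -0.42, and without control replicate 5 Lrp6 was at -0.093. For both genes the groups overlapped.

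Axin2, a feedback inhibitor induced by beta-catenin, is a common reading of the canonical branch. Its CPM was 2.01, 4.46, 3.63, 8.61 and 5.33 in control replicates 1 to 5 and 2.39, 3.84, 3.28, 4.63 and 10.6 in cdKO replicates 1 to 5. Apart from cdKO replicate 5, the cdKO samples lay inside the control range. The log2 fold change was 0.04 (SE 0.47, unadjusted p = 0.933 in edgeR), and it was -0.44 without cdKO replicate 5.

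Lef1, a DNA-binding partner of beta-catenin and itself a target, had a CPM of 2.24, 5.43, 6.82, 7.10 and 6.49 in control replicates 1 to 5 and 4.44, 5.23, 2.85, 6.02 and 2.501 in cdKO replicates 1 to 5. The lowest value was control replicate 1, and the next were cdKO replicates 5 and 3. The log2 fold change was -0.41 (SE 0.39, unadjusted p = 0.303 in edgeR). Of its counts 21.7% lay on a first bin that the opposite-strand gene Gm43352 shares.

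Counts along Axin2 were unevenly spread in both replicate 5 libraries, and those along Lef1 in cdKO replicate 5. The same middle stretch of Axin2 took 56.0% to 72.5% of its counts in the other 8 libraries, 10.8% in control replicate 5 and 0.929% in cdKO replicate 5, so the highest Axin2 value of all rested on the ends of the gene. Of 14 bins of Lef1 with counts in at least 8 libraries, cdKO replicate 5 had counts on 3. Over all 17 members with 3 or more such bins, 178 bins in all, the share with counts was 98.3% to 99.4% in the other libraries, 87.6% in control replicate 5 and 60.1% in cdKO replicate 5. Ror2 (2 of 10 bins), Fzd6 (1 of 6) and Lrp6 (11 of 28) were among the genes with most bins lost in cdKO replicate 5, whereas Ryk (23 of 23) and Fzd3 (8 of 8) had counts on every such bin. Even so, the middle stretch of Ryk took 52.6% of its counts in cdKO replicate 5 and 72.6% to 77.7% elsewhere, and that of Fzd3 took 34.9% against 43.1% to 47.2%.

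**Figure D5:**
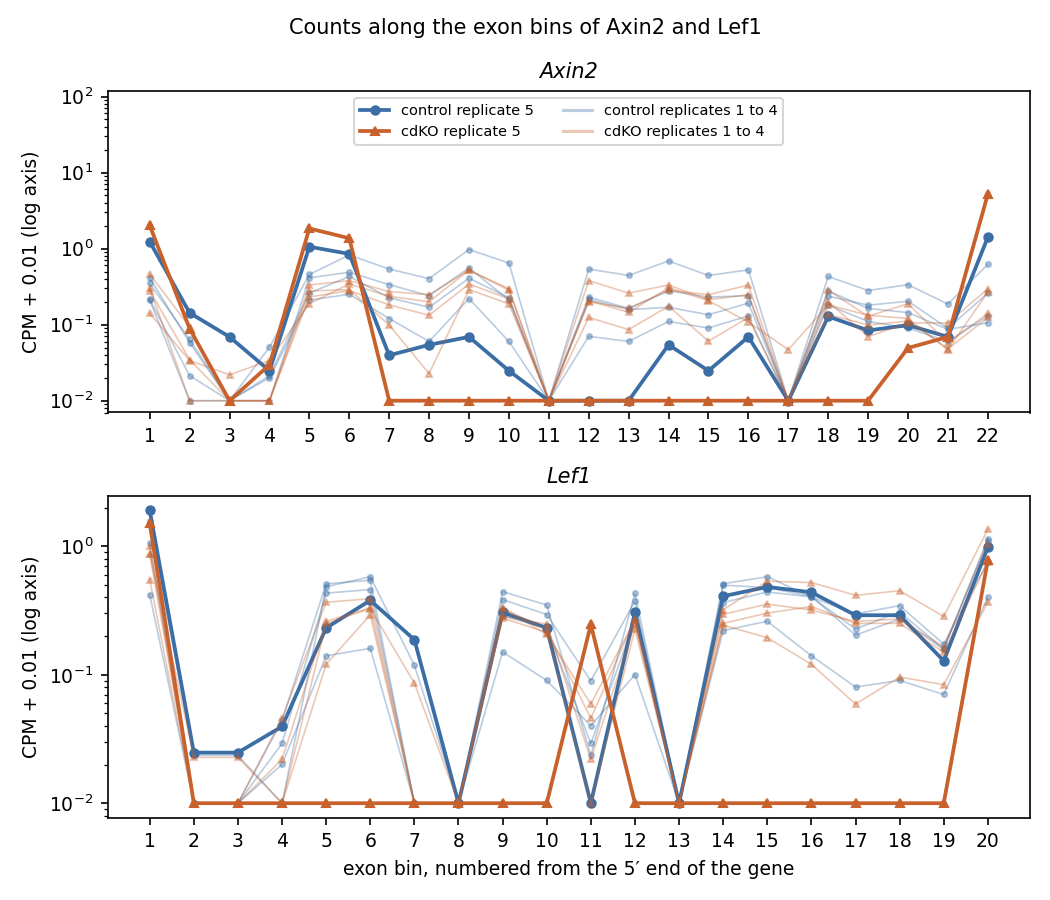
CPM + 0.01 (log axis) on each exon bin of Axin2 and Lef1, numbered from the 5′ end, with the replicate 5 libraries in bold. In cdKO replicate 5 most inner bins of both genes are at 0 counts while the first and last bins are not.

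Promoter sequence was examined for the letters of the Onecut and TCF/LEF core motifs, since loss of Onecut factors defines the groups. RefSeq promoters on GRCm38.p6, from 250 bases before to 50 after a gene's start, were matched for 26 of the 36 genes, with the promoter nearest the annotated start where a gene had several. The Onecut core ATCAAT, on either strand, was in 2 of the 26 (7.69%) and in 7.54% of all 32851 promoters. The TCF/LEF cores CTTTGA and CTTTGT were in 3 (11.5%) and 5 (19.2%) of the 26, beside 16.0% and 18.7% of all. The TCF/LEF cores share all but their last letter, and a match is a description of letters, not of binding. The 2 promoters with the Onecut core are shown with that core, and the TCF/LEF core of Ror1 on the opposite strand, in capitals.
Axin2 (chr11:108920099-108920398, + strand): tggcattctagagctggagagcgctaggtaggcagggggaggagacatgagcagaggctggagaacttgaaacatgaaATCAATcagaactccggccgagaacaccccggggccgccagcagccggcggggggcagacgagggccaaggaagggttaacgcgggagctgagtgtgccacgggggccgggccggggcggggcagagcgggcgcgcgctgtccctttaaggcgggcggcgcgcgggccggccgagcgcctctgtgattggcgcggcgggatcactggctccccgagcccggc
Ror1 (chr4:100095541-100095840, + strand): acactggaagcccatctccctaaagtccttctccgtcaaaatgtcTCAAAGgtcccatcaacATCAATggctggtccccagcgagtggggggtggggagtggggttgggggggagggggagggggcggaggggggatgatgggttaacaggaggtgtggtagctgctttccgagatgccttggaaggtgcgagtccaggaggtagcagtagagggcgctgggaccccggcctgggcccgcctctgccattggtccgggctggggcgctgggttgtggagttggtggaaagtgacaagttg
The Onecut core starts 172 bases before the start of Axin2 and 188 before that of Ror1, and the TCF/LEF core of Ror1 lies 205 bases before it. As given above, the log2 fold changes of these genes were 0.04 and 0.80, neither past the test, and the Wnt1 promoter held none of the 3 cores.

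The rest of the pathway was read from 5 lists of 79 genes. Of the genes for ligand release and agonists, 9 of 12 were tested, and none differed at an unadjusted p under 0.05. The highest mean CPM of this list, without regard to gene length, was that of Wls, which carries Wnt proteins to the surface, with a CPM of 73.2 ± 25.03 in control and 70.3 ± 15.5 in cdKO (SD, n = 5 each). Of the secreted and membrane antagonists 14 of 22 were tested, with 5 positive and 9 negative changes and a median of -0.40. Sfrp2, a secreted Wnt-binding protein, was at 94.7 ± 29.0 in control and 58.4 ± 16.6 in cdKO, a log2 fold change of -0.70 (SE 0.30, unadjusted p = 0.0375, adjusted p = 0.938 in edgeR), and 53.7% of its counts lay on bins shared with the opposite-strand gene Gm26771. Its unadjusted p ran from 0.0214 to 0.1 with 1 library left out. Its relative Sfrp1, which had the highest mean CPM over the 10 samples, was at 85.8 ± 20.9 and 89.0 ± 28.5, while per kilobase Sfrp2 was above it.

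All 22 genes of beta-catenin transduction were tested, with 7 positive and 15 negative changes and a median of -0.16, none at an unadjusted p under 0.05. Ctnnb1, which encodes beta-catenin, was at 844 ± 293 and 740 ± 291 CPM. Of 9 further target genes 7 were tested and none was under that p. Id2, with the highest mean CPM, was at 93.3 ± 20.1 in control and 165 ± 127 in cdKO, where replicate 5 had 389 and the others 88.2 to 133.5. Its log2 fold change was 0.82 (unadjusted p = 0.0645, edgeR) and 0.23 without cdKO replicate 5. All 14 planar cell polarity genes were tested. Celsr1, an atypical cadherin of that pathway, was at 9.83 ± 3.40 and 5.46 ± 1.84 (log2 fold change -0.85, SE 0.34, unadjusted p = 0.027, adjusted p = 0.938 in edgeR), with an unadjusted p of 0.00559 to 0.0777 with 1 library left out. Vangl2, with the highest mean CPM, was at 105 ± 35.2 and 88.8 ± 20.9. None of the 5 lists had a gene past the adjusted threshold.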

How the data were processed

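Per the labels, RNA of sorted YFP-positive cells was prepared with a NEBNext Ultra kit and sequenced as paired reads. The deposited files hold raw read counts per exon bin, not normalized. The submitters' processing notes name bcl2fastq 2.17, Trimmomatic 0.36, STAR 2.5.2b, Subread 1.5.2, DESeq2 and the build GRCm38. The 16 intervals that appear on both strands carried equal counts in every file, so strand was not used. Bins of at most 5 bases between touching bins (3714) had a median count 1.02 times that of the neighbour with fewer counts, so that a read adds 1 count to each bin it overlaps, and genes with many short bins gain counts.

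Bins were summed to genes with GENCODE M21, leaving out 3974 bins (1.17% of counts) that several genes share equally. The test was edgeR 4.0.16 in R 4.3.3 after filterByExpr (minimum count 10) and TMM scaling (group only, Benjamini-Hochberg, threshold 0.05). The fit was also run on simulated counts, drawn for each gene independently and without the uneven coverage of the replicate 5 libraries. That run does not show how the test behaves on those libraries. CPM uses the TMM-scaled library size. Correlations used log2(CPM + 0.5) and 100000 permutations over all samples without regard to group, two-sided. Alternatives used DESeq2 1.42.0, limma 3.58.1, other scalings, filters and bins, a block for the replicate number, and fits without each library. Leaving out both replicate 5 libraries, leaving out libraries for genes of other lists and the densest bin of a gene were chosen after seeing the data. No 2 samples of a group were duplicates (chi-square per degree of freedom 121.8 or more).

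All 36 genes are accounted for. Values of every sample are given for members with an unadjusted p under 0.05, with groups that do not overlap, or among the 5 highest per kilobase of their class. From other pathway lists, up to 3 genes under that p and that with the highest mean CPM are named. The members and lists were chosen with earlier results of these data known.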

Additional observations from a re-analysis of the deposited data

Results flagged for a closer look

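In 56 groups of 5 samples, 4 had a sample whose gap to the nearest other sample was over the critical share of the group's range. For independent groups of normal values chance would give about 1 in 20 groups (2.8 here). These groups are mostly genes of the same libraries and are not independent, so 2.8 is no chance level for them. Of the 4 outlying samples 3 were cdKO replicate 5. Fzd9 had a CPM of 4.02 there against 16.5 to 20.1 in the other cdKO samples, Ror2 had 5.81 against 18.1 to 22.2, and Axin2 had 10.6 against 2.39 to 4.63. That library also had counts on the fewest bins of the members, and the part of this in the 3 values was not tested. Wnt11 had 3.49 in control replicate 1 against 0 to 0.815 in the other controls.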

How the results depend on the processing

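Under 21 alternatives no member passed the adjusted threshold, the lowest adjusted p of a member being 0.521, and 0 to 3 members were higher and 0 to 2 lower at an unadjusted p under 0.05. Over all genes, 1 passed with library size alone, 20 with the DESeq2 Wald test, 3 with limma-voom, 13 with limma-voom with sample weights, 1 without a filter, 4 without both replicate 5 libraries, and 0 to 4 with 1 library left out (4 without control replicate 5). Library size alone moved the median change over the whole table to -0.15 (log2), against -0.02 with TMM. The replicate number as a block gave 0 genes. The numbers were not taken as pairs: same-numbered samples deviated from their group means with correlations of -0.32 to 0.43, and not every one was over 0.1. Fold changes of 16 members kept 1 direction and those of 11 did not. With library size alone Axin2 was -0.22, Fzd1 -0.13, Fzd8 -0.044 and Wnt7b -0.054. With limma-voom Axin2 was -0.012, and with sample weights Axin2 was -0.056, Fzd1 -0.19, Fzd9 0.0044, Wnt5b 0.15 and Wnt7b -0.0501. With the block Axin2 was -0.0057. With the highest exon bin alone Fzd1 was -0.082, Fzd8 -0.042, Wnt5b 0.0038 and Wnt7a -0.091. Without both replicate 5 libraries Axin2 was -0.41, Fzd1 -0.27, Fzd2 -0.025, Fzd8 -0.13, Wnt5b 0.21, Wnt7a -0.048 and Wnt7b -0.066. With 1 library left out the ranges were Axin2 -0.44 to 0.34, Fzd1 -0.12 to 0.16, Fzd2 -0.0072 to 0.31, Fzd7 -0.45 to 0.026, Fzd8 -0.15 to 0.34, Fzd9 -0.36 to 0.031, Wnt16 -0.035 to 1.49, Wnt5a -0.35 to 0.017, Wnt5b -0.17 to 0.20, Wnt7a -0.055 to 0.36 and Wnt7b -0.41 to 0.39. The cause of these changes was not tested. Ryk ranked 4 of 5 co-receptors on longest bins, and the relation of Wnt7b to motor neuron markers was 0.981 within control. Of the 9 untested ligands 5 never exceeded 3 counts in a library.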
